A study of Mus musculus with 18 samples.

Results

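The sarcomere, the contractile unit of striated muscle, was examined through 47 genes that build its thin filaments, troponin complexes, myosin light chains, titin and M-band, and Z-discs, with the myosin heavy chains left out. The genes were taken from a list of symbols, and all 47 were found among the 29433 genes with at least 1 counted fragment and among the 16089 genes that passed the filter on low counts. RNA had been sequenced from whole tibialis anterior (TA) muscle, a fast muscle of the lower leg, of mice that carried a tumour to the study's endpoint and of mice without a tumour. There were 18 libraries in 9 groups of 2. The labels call the 2 of a group biological replicates and say no more of their origin, so every p-value measures only the spread between these libraries. In bulk muscle, fewer cells of a type and less RNA per cell cannot be told apart.

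The 5 tumour groups were each set against a control group. LLC mice (C57BL/6) received LLC cells, a Lewis lung carcinoma line, by intramuscular injection, and their controls received PBS; the muscle injected is not named by the labels. C26 mice (CD2F1) received C26 cells, a colon carcinoma line, under the skin, and their controls received PBS. KPC mice (C57BL/6) received 50000 KPC cells and KPCML1 mice (C57BL/6) received 1000 KPCML1 cells, both by orthotopic injection, and both were compared with the same 2 mice given Matrigel alone, so those comparisons are not independent. KPP mice (C57BL/6) carried a genetic tumour model induced with tamoxifen, and their controls are labelled as KPP without tumour; their alleles, and whether the controls received tamoxifen, are not given by the labels. Libraries held 22546541 to 36673780 fragments. Values are CPM (normalised fragment counts scaled to library size) unless TPM, which also divides by transcript length, is named, and fold changes are log2, tumour over control, with their standard errors. A gene was called when its adjusted p from edgeR's quasi-likelihood test, corrected by the Benjamini-Hochberg method over all 16089 genes, was under 0.05.

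A sarcomere is the stretch of myofibril between neighbouring Z-discs. Thin filaments of actin, tropomyosin and troponin are anchored in the Z-disc by alpha-actinin and capped at their free ends, thick filaments of myosin are tied together at the M-band, and titin spans from Z-disc to M-band. Calcium binding to troponin C moves tropomyosin and lets myosin pull. Many of these proteins are made from paired genes, a form of fast fibres and a form of slow fibres, and wasting of muscle during cancer is known to involve breakdown of myofibrils by ubiquitin ligases. The labelled tissue held its defining markers: 11 myofibre marker genes summed to 68671 to 156663 CPM in tumour libraries and to 91472 to 119031 CPM in control libraries. The share of fragments on mitochondrial genes was 5.94% to 16.9% in tumour libraries and 14.6% to 22.4% in control libraries.

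A short exon and a pair of longer exons of Tnnt3, the gene of fast troponin T, are shown first. Their estimated shares differed on average between tumour and control libraries in an exact permutation test. These exons were chosen after transcript shares of the same libraries had been seen. For both 41-base exons the C26 and KPP groups overlapped their controls. None of the differences passed the threshold within replicate pairs, a test that left out the orthotopic libraries. The exons lie on chromosome 7 (mm10, plus strand, exon positions from GENCODE M21). The upstream 15-base exon at chr7:142504250-142504264 encodes part of the variable amino-terminal stretch. The upstream 41-base exon at chr7:142513665-142513705 and the downstream 41-base exon at chr7:142514326-142514366 are alternatives near the carboxyl end, and capitals mark the 23 positions at which the 2 differ, while 18 of 41 bases (43.9%) are the same.
Tnnt3 upstream 15-base exon: aagtccaggaggaag
Tnnt3 upstream 41-base exon: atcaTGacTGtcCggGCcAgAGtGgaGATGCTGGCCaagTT
Tnnt3 downstream 41-base exon: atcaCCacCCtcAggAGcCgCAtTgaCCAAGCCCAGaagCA

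The 47 genes together took 10.6% to 17.1% of all TPM in tumour libraries and 13.8% to 16.9% in control libraries, so these ranges overlapped. C26 tumour muscles were lowest, at 11.3% and 10.6%, against 15.7% and 13.8% in C26 control muscles. Per length, Tnnt3 was the most abundant member in both groups, with a median of 31143 TPM in tumour libraries (24458 to 39929) and 27721 TPM in control libraries (24089.8 to 30304). Fast troponin C (Tnnc2) followed in control libraries with a median of 18495 TPM in tumour libraries (12711 to 29883) and 24528 TPM in control libraries (19142 to 25674). The range of levels was wide: Mybph, which encodes a myosin-binding protein, had a median of 3.24 TPM in tumour libraries (0.462 to 6.78) and 2.54 TPM in control libraries (1.02 to 7.12).

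The numbers of members called differed among the models. The members were chosen with earlier results of these data known, so their shares against all genes describe them and are no test. In LLC muscles 1 member rose and 10 fell, which is 23.4% of the 47 called, against 13.6% of all genes tested (7.39% higher and 6.24% lower). In C26 muscles 6 rose and 14 fell (42.6% called, against 21.3% of all genes, 11.5% higher and 9.8% lower). In KPC muscles 8 rose and 4 fell (25.5%, against 29.1% of all genes, 15.3% higher and 13.7% lower). In KPCML1 muscles 2 rose and 3 fell (10.6%, against 8.53% of all genes, 4.15% higher and 4.38% lower). In KPP muscles 11 rose and 11 fell (46.8%, against 36.7% of all genes, 17.4% higher and 19.3% lower). The share called in KPC was thus below that of all genes, and that in KPCML1 was close to it, but with DESeq2 the shares were 31.9% of members against 30.8% of all genes in KPC and 17% against 12.8% in KPCML1. Median log2 fold changes of the members were -0.38 in LLC, -0.02 in C26, 0.22 in KPC, -0.11 in KPCML1 and 0.27 in KPP, while the median of all genes was between -0.04 and 0.04 in each comparison.

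Of the 47 members, 32 (68.1%) were called in at least 1 comparison, against 55.0% of all genes tested, and 15 in none. No member was called in opposite directions: 14 rose only and 18 fell only. Neither this split nor the leave-one-out count below was computed for all genes, so neither can be called particular to the members. Each fit without 1 library also let more genes past the filter on low counts, which changes the tested set for every comparison. Myom1, Xirp1, Lmod2, Flnc and Des rose in at least 3 comparisons (10.6% of members, against 8.06% of all genes), and Actc1, Tpm1, Myl1, Ldb3, Myoz3 and Lmod3 fell in at least 3 (12.8%, against 6.41%). The calls rest on 2 libraries a group: of the 70 member calls, 29 held when each of the 4 libraries of their own comparison was left out in turn, 2 of 11 in LLC, 9 of 20 in C26, 5 of 12 in KPC, 0 of 5 in KPCML1 and 13 of 22 in KPP.

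**Figure D1:**
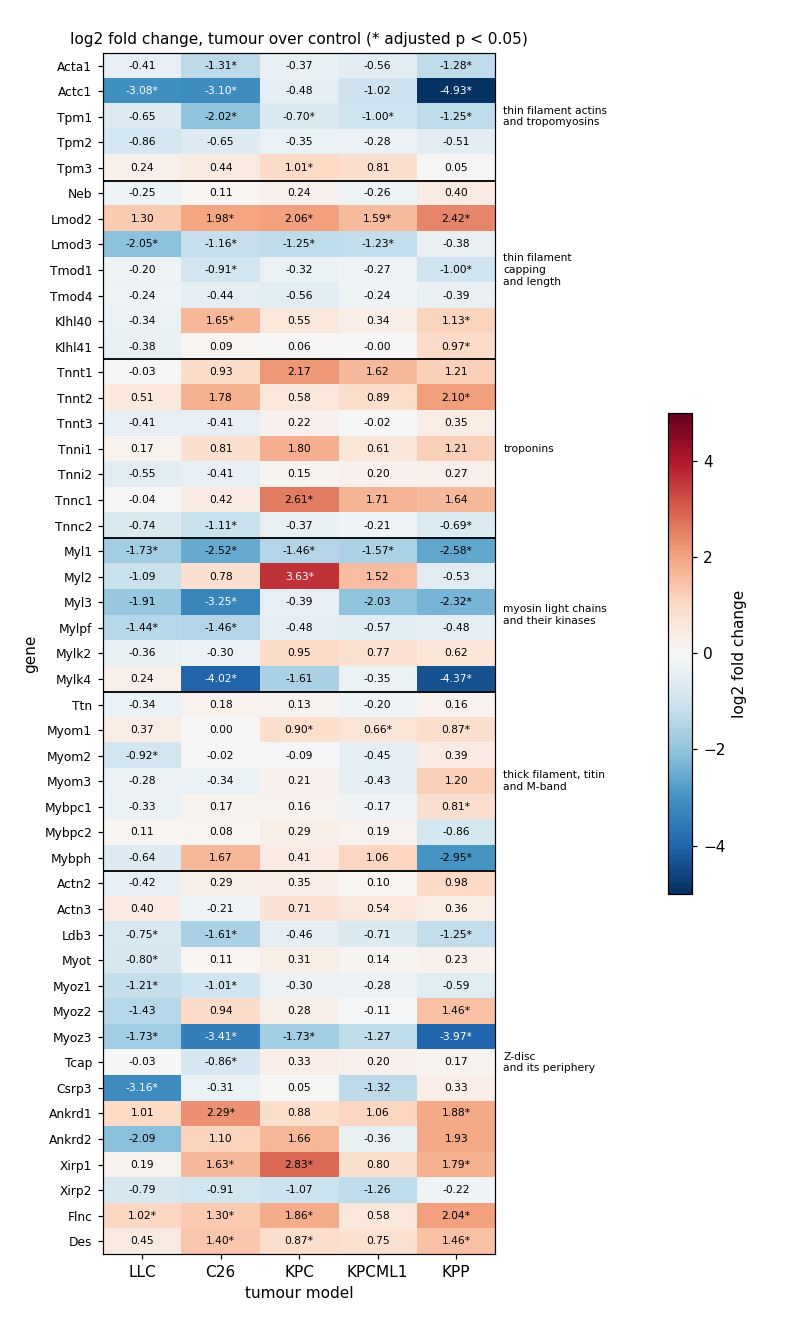
Log2 fold change, tumour over control, of the 47 genes (rows, grouped by role) in the 5 tumour models (columns); the number in each cell is the log2 fold change, red is higher and blue lower in tumour muscles, and an asterisk marks an adjusted p under 0.05 in edgeR's quasi-likelihood test. Myl1 is blue with an asterisk in every column, and Lmod2 and Lmod3 have opposite colours in every column.

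Among myosin light chains, Myl1, the fast essential light chain that stiffens the lever arm of fast myosin, fell in all 5 models. Myl1 measured 3619 and 2608 CPM in LLC, 1842 and 878 CPM in C26, 3257 and 4264 CPM in KPC, 4060.2 and 2918 CPM in KPCML1, and 2145 and 1247 CPM in KPP tumour muscles. Control muscles held Myl1 at 10260.1 and 10345 CPM for LLC, 7214 and 8350.1 CPM for C26, 11078 and 9684 CPM with Matrigel, and 9685 and 10568 CPM for KPP. Every tumour library was below every control library, with no overlap between any pair of groups. Its log2 fold change was -1.73 ± 0.34 in LLC (adjusted p = 0.00516), -2.52 ± 0.35 in C26 (0.000421), -1.46 ± 0.34 in KPC (0.00620), -1.57 ± 0.34 in KPCML1 (0.0134) and -2.58 ± 0.35 in KPP (0.000169). The C26 and KPP calls held with any of the 18 libraries left out. The LLC call was lost without LLC tumour replicate 2 (0.0835), the KPC call was lost without KPC tumour replicate 1 (0.0541), and the KPCML1 call was lost without Matrigel control replicate 1 (0.0724), Matrigel control replicate 2 (0.0671) or KPCML1 tumour replicate 2 (0.181).

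The fast regulatory light chain Mylpf, which binds beside Myl1 on the same myosin neck, fell in LLC and C26. Mylpf measured 3263 and 2802 CPM in LLC, 2934 and 1721 CPM in C26, 5555 and 4784 CPM in KPC, 4598 and 5121 CPM in KPCML1, and 5074 and 5771 CPM in KPP tumour muscles. Control muscles held Mylpf at 8229 and 8195 CPM for LLC, 5768 and 7018 CPM for C26, 6879 and 7522 CPM with Matrigel, and 6937 and 8185 CPM for KPP. Tumour libraries were below their controls in each model. The change was called in LLC (-1.44 ± 0.24, adjusted p = 0.00186) and C26 (-1.46 ± 0.24, 0.00116), and held with any library left out. In KPC, KPCML1 and KPP the log2 values were -0.48, -0.57 and -0.48 and were not called.

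Of the slow light chains, Myl3 (slow essential) fell in C26 (-3.25 ± 0.80, adjusted p = 0.0116) and KPP (-2.32 ± 0.77, 0.0298). It measured 11.2 and 2.70 CPM in C26 tumour muscles, against 45.4 and 87.1 CPM in C26 control muscles. KPP tumour muscles had 23.8 and 6.33 CPM, against 46.6 and 103 CPM in KPP control muscles, so the groups were apart in both models. The adjusted p was 0.128 without C26 tumour replicate 2 and 0.195 without KPP tumour replicate 2. Myl2 (slow regulatory) was called higher in KPC (3.63 ± 1.30, 0.0489), with 26.5 and 0.497 CPM in KPC tumour muscles, against 0.551 and 1.64 CPM in Matrigel control muscles. Of these 4 libraries only KPC tumour replicate 1 was high, and without it the log2 fold change was -1.06 (adjusted p = 0.594).

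Mylk4, a kinase of the myosin light chain kinase family, fell in C26 and KPP. Mylk4 measured 901 and 573 CPM in LLC, 76.7 and 13.9 CPM in C26, 334 and 145 CPM in KPC, 659.9 and 495 CPM in KPCML1, and 49.1 and 5.91 CPM in KPP tumour muscles. Control muscles held Mylk4 at 678 and 572 CPM for LLC, 792 and 677 CPM for C26, 815 and 653 CPM with Matrigel, and 542 and 588 CPM for KPP. C26 and KPP tumour libraries lay far below their controls, KPC tumour libraries lay below theirs, and the LLC and KPCML1 groups overlapped their controls. The fall was -4.02 ± 0.84 in C26 (adjusted p = 0.00487) and -4.37 ± 0.86 in KPP (0.00166). The KPP call held with any library left out, and the C26 call was lost without C26 tumour replicate 2 (0.0525). In LLC, KPC and KPCML1 the log2 values were 0.24, -1.61 and -0.35, not called, and the test of equal differences across the 5 models gave an adjusted p of 0.0368. Mylk2, the main skeletal light chain kinase, was called in none, with log2 values of -0.36 to 0.95.

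**Figure D2:**
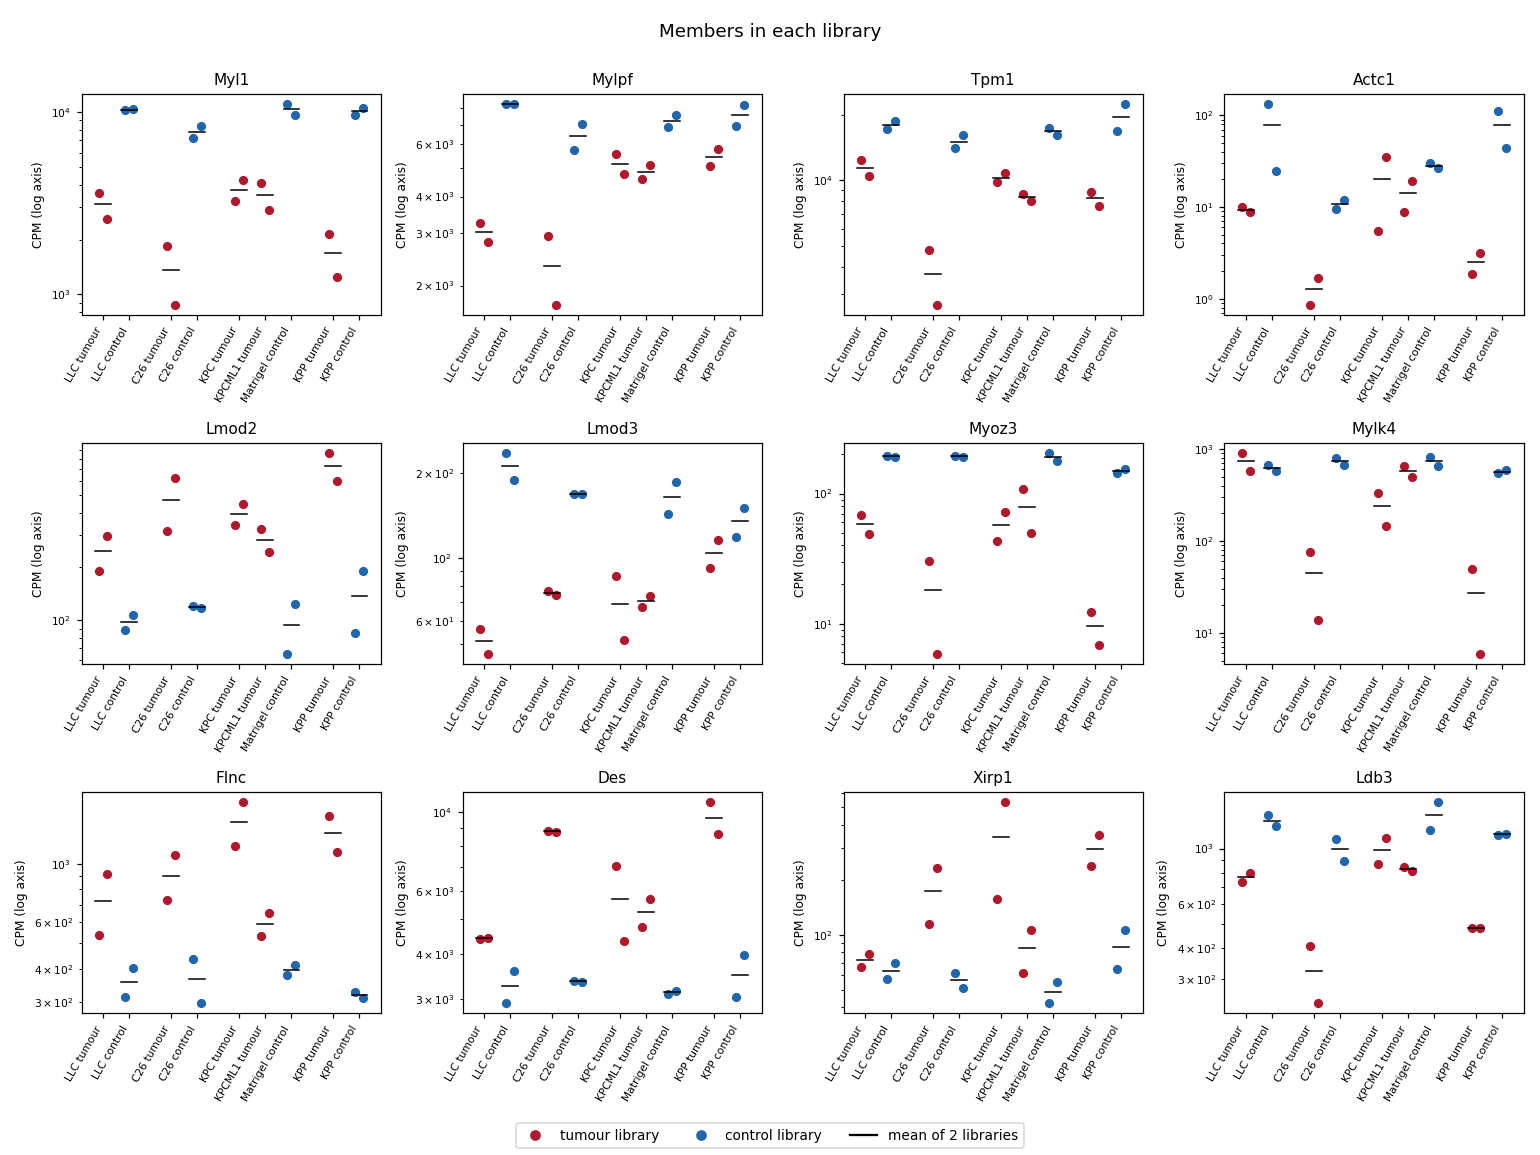
CPM (log axis) of 12 of the genes in each of the 18 libraries; red points are tumour libraries, blue points control libraries and the bar is the mean of the 2 libraries of a group, with each tumour group left of its control and KPC and KPCML1 sharing the Matrigel controls. Myl1 sits between 878 and 4264 CPM in the 10 tumour libraries and between 7214 and 11078 CPM in the 8 control libraries.

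In the thin filament, Tpm1, the fast alpha-tropomyosin that shields the myosin-binding sites of actin, fell in 4 of 5 models. Tpm1 measured 12416 and 10451 CPM in LLC, 4762 and 2681 CPM in C26, 9837 and 10761 CPM in KPC, 8700.1 and 8078 CPM in KPCML1, and 8886 and 7623 CPM in KPP tumour muscles. Control muscles held Tpm1 at 17286 and 18665 CPM for LLC, 14020.0 and 16114 CPM for C26, 17429 and 16134 CPM with Matrigel, and 16816 and 22453 CPM for KPP. All tumour libraries were below all control libraries. The change was -2.02 ± 0.26 in C26 (adjusted p = 0.000268) and -1.25 ± 0.25 in KPP (0.00206), where it held with any library left out. In KPCML1 (-1.0 ± 0.25, 0.0286) the call was lost without Matrigel control replicate 1 (0.120), Matrigel control replicate 2 (0.118), KPCML1 tumour replicate 1 (0.0924) or KPCML1 tumour replicate 2 (0.221). In KPC (-0.70 ± 0.25, 0.0494) the call held in 5 of 18 leave-one-out fits, those without C26 tumour replicate 1, C26 tumour replicate 2, KPP control replicate 1, KPP control replicate 2 or KPP tumour replicate 1, with adjusted p 0.0555 to 0.203 in the others. In LLC Tpm1 was not called (-0.65 ± 0.25, 0.104).

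Tpm2, the beta-tropomyosin, was called in none, with log2 values of -0.86 to -0.28. Tpm3, whose muscle form is the slow alpha-tropomyosin and which also makes forms used outside muscle, rose in KPC (1.01 ± 0.32, 0.0294), with 62.0 and 53.4 CPM in KPC tumour muscles, against 29.0 and 28.3 CPM in Matrigel control muscles. Both tumour libraries were above both controls, and adjusted p was 0.155 without Matrigel control replicate 2.

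Skeletal alpha-actin (Acta1) is the actin of adult skeletal thin filaments, and cardiac alpha-actin (Actc1) is the striated actin that skeletal muscle uses mainly before birth. Acta1 measured 14299 and 16099 CPM in LLC, 12237 and 5795 CPM in C26, 15881 and 22406 CPM in KPC, 17624 and 16016 CPM in KPCML1, and 8880.2 and 9766 CPM in KPP tumour muscles. Control muscles held Acta1 at 19257 and 21186 CPM for LLC, 22216 and 22371 CPM for C26, 25318 and 24105 CPM with Matrigel, and 23577 and 21771 CPM for KPP. Tumour libraries were below their controls in each model, furthest in C26 and KPP. Acta1 fell in C26 (-1.31 ± 0.29, adjusted p = 0.00618) and KPP (-1.28 ± 0.29, 0.00364) with any library left out. When each experiment was fitted alone, adjusted p was 0.0644 in C26 and 0.0523 in KPP.

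Actc1 measured 9.90 and 8.73 CPM in LLC, 0.857 and 1.67 CPM in C26, 5.48 and 35.3 CPM in KPC, 8.88 and 19.2 CPM in KPCML1, and 1.86 and 3.18 CPM in KPP tumour muscles. Control muscles held Actc1 at 133 and 24.8 CPM for LLC, 9.55 and 12 CPM for C26, 30.2 and 26.5 CPM with Matrigel, and 111 and 44.1 CPM for KPP. Actc1 was lower in both tumour libraries than in both controls in LLC, C26, KPCML1 and KPP, while KPC tumour libraries lay on both sides of the Matrigel controls. Actc1 fell in LLC (-3.08 ± 0.82, adjusted p = 0.0240), C26 (-3.10 ± 0.91, 0.0264) and KPP (-4.93 ± 0.91, 0.00112). The KPP call held with any library left out, the LLC call was lost without LLC control replicate 1 (0.369), LLC tumour replicate 1 (0.120) or LLC tumour replicate 2 (0.184), and the C26 call was lost without C26 control replicate 1 (0.0701), C26 control replicate 2 (0.106), C26 tumour replicate 1 (0.130) or C26 tumour replicate 2 (0.120). Of 6 cardiac markers, Myl7, Nkx2-5 and Gata4 were under 0.1 CPM in every library, and Nppa was at or under 0.533 CPM in tumour libraries and 0.793 CPM in control libraries. Myh6 stood at 1.09 to 7.21 CPM in tumour libraries and 0.283 to 5.87 CPM in control libraries, and Myl4, which developing muscle also makes, at 6.36 to 19.3 CPM in tumour libraries and 4.88 to 18.5 CPM in control libraries. The 6 summed to 9.59 to 20.6 CPM in tumour libraries and 5.16 to 21.4 CPM in control libraries, and their part in the Actc1 values was not tested.

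The leiomodins moved in opposite directions: Lmod2 rose in 4 models and Lmod3 fell in 4. Leiomodins bind the pointed end of the thin filament and start or lengthen it there. Lmod2 measured 189.7 and 297 CPM in LLC, 315 and 623 CPM in C26, 342 and 445 CPM in KPC, 325 and 241 CPM in KPCML1, and 861 and 601 CPM in KPP tumour muscles. Control muscles held Lmod2 at 89.0 and 108 CPM for LLC, 121 and 117 CPM for C26, 64.9 and 124 CPM with Matrigel, and 84.9 and 188 CPM for KPP. Each tumour library was above its controls. Lmod2 rose in C26 (1.98 ± 0.42, adjusted p = 0.00510), KPC (2.06 ± 0.42, 0.00322), KPCML1 (1.59 ± 0.42, 0.0327) and KPP (2.42 ± 0.43, 0.000806), and its value in LLC was 1.30 ± 0.41 (0.0503). The KPC and KPP calls held with any library left out, the C26 call was lost without C26 control replicate 2 (0.0532) or C26 tumour replicate 2 (0.0714), and the KPCML1 call was lost without LLC control replicate 1 (0.0516), LLC control replicate 2 (0.0515), Matrigel control replicate 1 (0.235), Matrigel control replicate 2 (0.0751), KPCML1 tumour replicate 1 (0.111) or KPCML1 tumour replicate 2 (0.101).

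Lmod3 measured 56.4 and 46.0 CPM in LLC, 76.6 and 74.6 CPM in C26, 86.6 and 51.8 CPM in KPC, 67.4 and 73.7 CPM in KPCML1, and 92.3 and 116 CPM in KPP tumour muscles. Control muscles held Lmod3 at 235 and 189 CPM for LLC, 169 and 168 CPM for C26, 144 and 186 CPM with Matrigel, and 119 and 151 CPM for KPP. Lmod3 was lower in each tumour library than in its controls. It fell in LLC (-2.05 ± 0.24, adjusted p = 0.000233), C26 (-1.16 ± 0.24, 0.00409), KPC (-1.25 ± 0.24, 0.00204) and KPCML1 (-1.23 ± 0.24, 0.00765), but was not called in KPP (-0.38 ± 0.23, 0.219). The first 3 held with any library left out, and the KPCML1 call was lost without Matrigel control replicate 2 (0.0788) or KPCML1 tumour replicate 2 (0.0740). The joint test of equal differences gave an adjusted p of 0.0475. Per length, Lmod2 had a median of 235 TPM in tumour libraries (123 to 569) and 59.0 TPM in control libraries (37.2 to 83.8), and Lmod3 had a median of 43.1 TPM in tumour libraries (24.9 to 61.3) and 82.3 TPM in control libraries (59.2 to 99.4).

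Klhl40, a Kelch protein that stabilises leiomodin and nebulin, rose in C26 and KPP. Klhl40 measured 67.5 and 90.6 CPM in LLC, 161 and 211 CPM in C26, 149 and 106 CPM in KPC, 88.7 and 131 CPM in KPCML1, and 161 and 308 CPM in KPP tumour muscles. Control muscles held Klhl40 at 96.6 and 103 CPM for LLC, 44.0 and 74.4 CPM for C26, 78.8 and 94.9 CPM with Matrigel, and 95.1 and 119.8 CPM for KPP. The tumour libraries were above their controls in C26, KPC and KPP, below them in LLC, and overlapped them in KPCML1. The change was 1.65 ± 0.33 in C26 (adjusted p = 0.00377) and 1.13 ± 0.33 in KPP (0.0156). The C26 call was lost without C26 control replicate 1 (0.0549) and the KPP call was lost without KPP control replicate 1 (0.120) or KPP tumour replicate 2 (0.156).

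Klhl41, a related Kelch protein, rose in KPP (0.97 ± 0.24, 0.00714, and 0.0891 without KPP control replicate 1). Tmod1, a tropomodulin that caps the pointed end, fell in C26 (-0.91 ± 0.20, 0.00703, and 0.0990 without C26 tumour replicate 2) and KPP (-1.0 ± 0.20, 0.00219), while Tmod4 (-0.56 to -0.24) and Neb (-0.26 to 0.40), the giant protein nebulin that runs along the thin filament, were called in none. Neb measured 4679.9 and 4383 CPM in LLC, 3802 and 3775 CPM in C26, 4905 and 6804 CPM in KPC, 5447 and 2868 CPM in KPCML1, and 3348 and 6906 CPM in KPP tumour muscles. Control muscles held Neb at 5088 and 5672 CPM for LLC, 4154 and 2889.5 CPM for C26, 5299 and 4631 CPM with Matrigel, and 3778 and 4005 CPM for KPP. The LLC tumour libraries were below their controls, and the other groups overlapped theirs.

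At the Z-disc, Ldb3, a PDZ-domain protein that binds alpha-actinin, fell in 3 models. Ldb3 measured 737 and 798 CPM in LLC, 408 and 241 CPM in C26, 869 and 1102 CPM in KPC, 846 and 816 CPM in KPCML1, and 479 and 483 CPM in KPP tumour muscles. Control muscles held Ldb3 at 1356 and 1225 CPM for LLC, 1089.9 and 895 CPM for C26, 1186 and 1529 CPM with Matrigel, and 1137 and 1145 CPM for KPP. All C26 and KPP tumour libraries were below all control libraries. Ldb3 fell in C26 (-1.61 ± 0.23, adjusted p = 0.000556) and KPP (-1.25 ± 0.23, 0.00114) with any library left out, and it fell in LLC (-0.75 ± 0.23, 0.0432). The LLC call held in 5 of 18 leave-one-out fits, those without KPC tumour replicate 1, KPC tumour replicate 2, C26 tumour replicate 1, C26 tumour replicate 2 or KPP tumour replicate 1, with adjusted p 0.0502 to 0.233 in the others.

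The calsarcins Myoz1, Myoz2 and Myoz3 tether calcineurin to alpha-actinin at the Z-disc. Myoz1 and Myoz3 are the fast fibre forms and Myoz2 the slow and cardiac form. Myoz3 measured 67.9 and 48.8 CPM in LLC, 30.5 and 5.84 CPM in C26, 43.4 and 72.1 CPM in KPC, 109 and 49.8 CPM in KPCML1, and 12.3 and 6.84 CPM in KPP tumour muscles. Control muscles held Myoz3 at 195 and 192 CPM for LLC, 195 and 191 CPM for C26, 205 and 178 CPM with Matrigel, and 143 and 155 CPM for KPP. Every tumour library was below every control library. Myoz3 fell in LLC (-1.73 ± 0.55, adjusted p = 0.0499), C26 (-3.41 ± 0.58, 0.00154), KPC (-1.73 ± 0.55, 0.0293) and KPP (-3.97 ± 0.60, 0.000337), and its value in KPCML1 was -1.27 ± 0.54 (0.161). The C26 and KPP calls held with any library left out, the KPC call was lost without Matrigel control replicate 1 (0.103), Matrigel control replicate 2 (0.0786), KPC tumour replicate 1 (0.175) or KPC tumour replicate 2 (0.0636), and the LLC call held in 3 of 18 leave-one-out fits, those without C26 tumour replicate 1, C26 tumour replicate 2 or KPP tumour replicate 1, with adjusted p 0.0501 to 0.307 in the others.

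Myoz1 fell in LLC (-1.21 ± 0.29, adjusted p = 0.0153) and C26 (-1.01 ± 0.29, 0.0249). It measured 1081 and 853 CPM in LLC tumour muscles, against 2238 and 2227 CPM in LLC control muscles. The groups were apart, and adjusted p was 0.168 without LLC tumour replicate 2 and 0.206 without C26 tumour replicate 2. Myoz2 measured 16.6 and 20.6 CPM in LLC, 109 and 204 CPM in C26, 54.4 and 38.0 CPM in KPC, 29.0 and 41.4 CPM in KPCML1, and 175 and 231 CPM in KPP tumour muscles. Control muscles held Myoz2 at 48.4 and 51.9 CPM for LLC, 64.8 and 98.2 CPM for C26, 12.9 and 63.3 CPM with Matrigel, and 53.2 and 94.1 CPM for KPP. Myoz2 tumour libraries were above their controls in C26 and KPP, below them in LLC, and overlapped them in KPC and KPCML1. Myoz2 rose in KPP (1.46 ± 0.53, 0.0445), and the call was lost without LLC control replicate 1 (0.0536), LLC control replicate 2 (0.0534), LLC tumour replicate 2 (0.0567), KPP control replicate 1 (0.259), KPP tumour replicate 1 (0.0652) or KPP tumour replicate 2 (0.131).

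Filamin C (Flnc), an actin crosslinker of the Z-disc that gathers at sites of myofibril damage, rose in 4 models. Flnc measured 538 and 910.3 CPM in LLC, 726 and 1075 CPM in C26, 1162 and 1705 CPM in KPC, 532 and 649 CPM in KPCML1, and 1512 and 1108 CPM in KPP tumour muscles. Control muscles held Flnc at 312 and 401 CPM for LLC, 436 and 296 CPM for C26, 377 and 413 CPM with Matrigel, and 326 and 310.4 CPM for KPP. All tumour libraries were above all control libraries. Its change was 1.02 ± 0.30 in LLC (adjusted p = 0.0352), 1.30 ± 0.30 in C26 (0.00801), 1.86 ± 0.30 in KPC (0.000929) and 2.04 ± 0.31 in KPP (0.000306), and in KPCML1 0.58 ± 0.30 (0.246, not called). The KPC and KPP calls held with any library left out, the C26 call was lost without C26 control replicate 2 (0.116) or C26 tumour replicate 2 (0.0968), and the LLC call was lost without LLC control replicate 1 (0.285), LLC control replicate 2 (0.102), LLC tumour replicate 2 (0.383), Matrigel control replicate 1 (0.0574), Matrigel control replicate 2 (0.0575) or KPP control replicate 2 (0.0519).

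Desmin (Des), the intermediate filament that links Z-discs to one another, rose in 3 models. Des measured 4413 and 4447 CPM in LLC, 8849.9 and 8789 CPM in C26, 7041 and 4335 CPM in KPC, 4774 and 5699.7 CPM in KPCML1, and 10618 and 8637 CPM in KPP tumour muscles. Control muscles held Des at 2912 and 3589 CPM for LLC, 3360.3 and 3343 CPM for C26, 3088 and 3158 CPM with Matrigel, and 3026 and 3974 CPM for KPP. Every tumour library exceeded every control library. Desmin rose in C26 (1.40 ± 0.24, adjusted p = 0.00143), KPC (0.87 ± 0.23, 0.0142) and KPP (1.46 ± 0.24, 0.000504). The C26 and KPP calls held with any library left out, and the KPC call was lost without Matrigel control replicate 1 (0.0881), Matrigel control replicate 2 (0.0852) or KPC tumour replicate 1 (0.109). Desmin is also made by smooth muscle. The other 6 smooth muscle markers summed to 59.2 to 133 CPM in tumour libraries and 104 to 149 CPM in control libraries, and of the 5 tested 1 rose in C26 and 1 in KPCML1, while 1 fell in LLC, 1 in C26, 2 in KPC, 1 in KPCML1 and 5 in KPP.

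Xirp1, an actin-binding Xin repeat protein that gathers where myofibrils are remodelled, rose in C26, KPC and KPP. Xirp1 measured 66.9 and 78.0 CPM in LLC, 114 and 233 CPM in C26, 157 and 533 CPM in KPC, 61.9 and 107 CPM in KPCML1, and 240.1 and 351 CPM in KPP tumour muscles. Control muscles held Xirp1 at 57.2 and 69.8 CPM for LLC, 61.7 and 50.8 CPM for C26, 42.1 and 54.8 CPM with Matrigel, and 64.8 and 106 CPM for KPP. The tumour libraries were above their controls in C26, KPC, KPCML1 and KPP, and LLC groups overlapped. Its change was 1.63 ± 0.48 in C26 (adjusted p = 0.0278), 2.83 ± 0.50 in KPC (0.00145) and 1.79 ± 0.48 in KPP (0.0107). In LLC and KPCML1 the log2 values were 0.19 and 0.80, and the joint test of equal differences gave an adjusted p of 0.0408. The KPC call held with any library left out, the C26 call was lost without C26 control replicate 1 (0.114), C26 control replicate 2 (0.180) or C26 tumour replicate 2 (0.281), and the KPP call was lost without KPP control replicate 1 (0.104) or KPP tumour replicate 2 (0.0514). Xirp2, its paralogue, was called in none, with log2 values of -1.26 to -0.22.

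Ankrd1 and Ankrd2 are ankyrin repeat proteins that bind titin and respond to stretch. Ankrd1 measured 37.6 and 34.6 CPM in LLC, 36.6 and 41.3 CPM in C26, 21.7 and 26.5 CPM in KPC, 27.6 and 27.1 CPM in KPCML1, and 58.2 and 175 CPM in KPP tumour muscles. Control muscles held Ankrd1 at 19.2 and 16.7 CPM for LLC, 8.40 and 7.52 CPM for C26, 11.8 and 14.4 CPM with Matrigel, and 15.7 and 47.8 CPM for KPP. Tumour libraries were above their controls in each model. Ankrd1 rose in C26 (2.29 ± 0.47, adjusted p = 0.00446) and KPP (1.88 ± 0.46, 0.00590). The C26 call held with any library left out, and the KPP call was lost without KPP control replicate 1 (0.0585) or KPP tumour replicate 2 (0.0903). Ankrd2 measured 32.3 and 46.3 CPM in LLC, 95.2 and 222 CPM in C26, 207 and 536 CPM in KPC, 48.6 and 135 CPM in KPCML1, and 926 and 649 CPM in KPP tumour muscles. Control muscles held Ankrd2 at 115 and 220.0 CPM for LLC, 64.8 and 82.8 CPM for C26, 24.2 and 210.1 CPM with Matrigel, and 149 and 263 CPM for KPP. Ankrd2 tumour libraries were above their controls in C26 and KPP and below them in LLC, the Matrigel pair was unequal, and no comparison was called (adjusted p = 0.0670 in KPP).

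Csrp3, the muscle LIM protein of the Z-disc, fell in LLC. Csrp3 measured 6.40 and 12.7 CPM in LLC, 39.6 and 40.2 CPM in C26, 56.9 and 49.7 CPM in KPC, 13.6 and 27.8 CPM in KPCML1, and 119 and 122 CPM in KPP tumour muscles. Control muscles held Csrp3 at 40.3 and 131 CPM for LLC, 39.9 and 59.2 CPM for C26, 9.53 and 93.8 CPM with Matrigel, and 85.4 and 106 CPM for KPP. The LLC tumour libraries were below their controls, and the KPP tumour libraries just above theirs. The LLC change was -3.16 ± 0.79 (adjusted p = 0.0174). The call was lost without LLC control replicate 2 (0.154), LLC tumour replicate 1 (0.129) or LLC tumour replicate 2 (0.0891), and the joint test across models did not call Csrp3 (adjusted p = 0.109).

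Telethonin (Tcap), which clasps the ends of titin in the Z-disc, fell in C26. Tcap measured 3822 and 3332 CPM in LLC, 1809 and 2738 CPM in C26, 3425 and 4735 CPM in KPC, 3667 and 3802 CPM in KPCML1, and 5052 and 2770.2 CPM in KPP tumour muscles. Control muscles held Tcap at 3768 and 3538 CPM for LLC, 4007 and 4239.9 CPM for C26, 2977 and 3509 CPM with Matrigel, and 3011 and 3958 CPM for KPP. The C26 tumour libraries were below their controls, and the KPCML1 tumour libraries were above theirs. The C26 change was -0.86 ± 0.28 (adjusted p = 0.0430), and the call held in 6 of 18 leave-one-out fits, those without KPC tumour replicate 1, KPC tumour replicate 2, KPP control replicate 1, KPP control replicate 2, KPP tumour replicate 1 or KPP tumour replicate 2, with adjusted p 0.0505 to 0.205 in the others. Myotilin (Myot), an actin crosslinker, fell in LLC (-0.80 ± 0.21, 0.0245, and 0.194 without LLC tumour replicate 2).

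The alpha-actinins, which crosslink actin in the Z-disc, were called in none. Actn3 measured 9151 and 9452 CPM in LLC, 6811 and 3144 CPM in C26, 13147 and 14034 CPM in KPC, 12565 and 11506 CPM in KPCML1, and 8807 and 12713 CPM in KPP tumour muscles. Control muscles held Actn3 at 6241 and 7876 CPM for LLC, 5707 and 5796 CPM for C26, 9331 and 7235 CPM with Matrigel, and 7689.9 and 9095 CPM for KPP. For Actn3, the fast form, tumour libraries were above their controls in LLC, KPC and KPCML1, with the lowest adjusted p in KPC (0.71, 0.0876). Actn2 measured 547 and 635 CPM in LLC, 816 and 1107 CPM in C26, 961 and 1043 CPM in KPC, 722 and 968 CPM in KPCML1, and 1684 and 1347 CPM in KPP tumour muscles. Control muscles held Actn2 at 704 and 871 CPM for LLC, 920.2 and 658 CPM for C26, 402 and 1171 CPM with Matrigel, and 675 and 863 CPM for KPP. Actn2 tumour libraries were above their controls in KPP (0.98, 0.0516) and below them in LLC (-0.42, 0.510).

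In the thick filament and M-band, Myom1, which crosslinks myosin tails at the M-band, rose in 3 models. Myom1 measured 2093 and 2030.5 CPM in LLC, 1033 and 1046 CPM in C26, 3059 and 2985 CPM in KPC, 2571 and 2564 CPM in KPCML1, and 2750.3 and 2388 CPM in KPP tumour muscles. Control muscles held Myom1 at 1590.0 and 1597 CPM for LLC, 1140.2 and 934 CPM for C26, 1655 and 1589 CPM with Matrigel, and 1249 and 1553 CPM for KPP. Tumour libraries were above controls in LLC, KPC, KPCML1 and KPP, and the C26 groups overlapped. Myom1 rose in KPC (0.90 ± 0.17, adjusted p = 0.00205), KPCML1 (0.66 ± 0.17, 0.0289) and KPP (0.87 ± 0.17, 0.00146). The KPC and KPP calls held with any library left out, and the KPCML1 call was lost without LLC control replicate 1 (0.0535), LLC control replicate 2 (0.0536), Matrigel control replicate 1 (0.130), Matrigel control replicate 2 (0.217), KPCML1 tumour replicate 1 (0.0634) or KPCML1 tumour replicate 2 (0.132). Its paralogue Myom2 fell in LLC (-0.92 ± 0.27, 0.0394, and 0.271 without LLC tumour replicate 1) and Myom3 was called in none (-0.43 to 1.2).

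Titin (Ttn), the molecular spring, was called in none of the models, with log2 values of -0.34 to 0.18. Ttn measured 9152 and 8157 CPM in LLC, 10424 and 7484 CPM in C26, 9122 and 12234 CPM in KPC, 10668 and 6303 CPM in KPCML1, and 5386 and 10009.9 CPM in KPP tumour muscles. Control muscles held Ttn at 10965 and 10873 CPM for LLC, 8562 and 7293 CPM for C26, 10473 and 9087 CPM with Matrigel, and 7259 and 6518 CPM for KPP. The LLC tumour libraries were below their controls and the other groups overlapped theirs.

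Of the myosin-binding proteins, Mybpc1 (slow type) rose in KPP (0.81 ± 0.28, adjusted p = 0.0383, and 0.232 without KPP control replicate 1), and Mybpc2 (fast type) was called in none (-0.86 to 0.29). Mybph measured 2.15 and 6.35 CPM in LLC, 6.26 and 6.64 CPM in C26, 4.75 and 3.80 CPM in KPC, 8.80 and 4.64 CPM in KPCML1, and 0.826 and 2.18 CPM in KPP tumour muscles. Control muscles held Mybph at 9.43 and 3.87 CPM for LLC, 1.98 and 2.07 CPM for C26, 4.64 and 1.81 CPM with Matrigel, and 10.8 and 13 CPM for KPP. Mybph tumour libraries were below their controls in KPP and above them in C26 and KPCML1. Mybph fell in KPP (-2.95 ± 0.61, 0.00222), a call that held with any library left out, and was not called in C26 (1.67 ± 0.58, 0.0569). The joint test of equal differences gave an adjusted p of 0.0245. With the joint test 4 members (8.51%) differed among models, Mybph, Mylk4, Xirp1 and Lmod3, close to the 8.32% of all genes. With DESeq2 the joint test called 36.2% of members, against 21.6% of all genes.

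The troponin complex senses calcium on the thin filament. Fast troponin T (Tnnt3, which binds tropomyosin) and fast troponin I (Tnni2, the inhibitory subunit) were called in no comparison, with log2 values of -0.41 to 0.35 and -0.55 to 0.27. Tnnt3 measured 17813 and 16496 CPM in LLC, 13855 and 12276 CPM in C26, 26453 and 22274 CPM in KPC, 19271 and 22054 CPM in KPCML1, and 33384 and 28226 CPM in KPP tumour muscles. Control muscles held Tnnt3 at 23403 and 22292 CPM for LLC, 16466 and 18308 CPM for C26, 21446 and 20383 CPM with Matrigel, and 20076 and 28114 CPM for KPP. Tnnt3 tumour libraries were below their controls in LLC and C26 and above them in KPC and KPP. Tnni2 measured 7843 and 7557 CPM in LLC, 6227 and 6366 CPM in C26, 11719.9 and 8949 CPM in KPC, 9043 and 12376 CPM in KPCML1, and 16067 and 9885 CPM in KPP tumour muscles. Control muscles held Tnni2 at 11707 and 10781 CPM for LLC, 8162 and 8522 CPM for C26, 9057 and 9524 CPM with Matrigel, and 8824 and 12652 CPM for KPP. For Tnni2, tumour libraries were below controls in LLC and C26, and the other groups overlapped.

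Fast troponin C (Tnnc2) fell in C26 (-1.11 ± 0.24, adjusted p = 0.00527) and KPP (-0.69 ± 0.23, 0.0344), and its adjusted p was 0.0575 without C26 tumour replicate 2 and 0.289 without KPP control replicate 2. Cardiac troponin T (Tnnt2), also made by developing skeletal muscle, rose in KPP, with 10.7 and 19.8 CPM in KPP tumour muscles, against 1.84 and 5.39 CPM in KPP control muscles (2.10 ± 0.63, 0.0185, and 0.163 without KPP control replicate 1). The KPP groups were apart. The 10 markers of immature or regenerating fibres summed to 54.1 to 130 CPM in tumour libraries and 34.4 to 76.3 CPM in control libraries, and of the 9 tested 2 rose in LLC, 4 in C26, 2 in KPC and 3 in KPP, while 2 fell in KPC, 2 in KPCML1 and 2 in KPP. Their part in the Tnnt2 and Actc1 values was not tested.

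Slow subunits were rare in this fast muscle. Tnnt1, slow troponin T, had a median of 18.9 TPM in tumour libraries (7.01 to 54.7) and 7.65 TPM in control libraries (1.70 to 18.3), and Tnni1, slow troponin I, had a median of 4.64 TPM in tumour libraries (1.77 to 14.6) and 2.56 TPM in control libraries (0.570 to 5.19). Slow troponin C (Tnnc1, shared with heart) rose in KPC, with 23.9 and 3.37 CPM in KPC tumour muscles, against 2.33 and 2.15 CPM in Matrigel control muscles (2.61 ± 0.89, adjusted p = 0.0406, and 0.630 without KPC tumour replicate 1), while Tnnt1 and Tnni1 were called in none. Tnnt1 measured 5.97 and 4.79 CPM in LLC, 30.2 and 12.4 CPM in C26, 27.1 and 5.01 CPM in KPC, 11.8 and 10.1 CPM in KPCML1, and 12.3 and 8.45 CPM in KPP tumour muscles. Control muscles held Tnnt1 at 9.69 and 1.35 CPM for LLC, 8.65 and 13.6 CPM for C26, 3.63 and 3.51 CPM with Matrigel, and 1.91 and 7.19 CPM for KPP. Tnnt1 tumour libraries were above their controls in KPC, KPCML1 and KPP. Tnni1 measured 1.79 and 1.75 CPM in LLC, 9.40 and 3.40 CPM in C26, 12.4 and 1.63 CPM in KPC, 3.45 and 2.74 CPM in KPCML1, and 4.91 and 3.30 CPM in KPP tumour muscles. Control muscles held Tnni1 at 2.29 and 0.864 CPM for LLC, 2.59 and 4.71 CPM for C26, 2.98 and 1.06 CPM with Matrigel, and 0.460 and 3.20 CPM for KPP. For Tnni1 the KPP groups alone were apart. KPC tumour replicate 1 stood apart from replicate 2 for slow genes. It held 27.1 CPM of Tnnt1, 12.4 CPM of Tnni1 and 51.7 CPM of Myh7, the slow myosin heavy chain, against 5.01, 1.63 and 1.81 CPM in replicate 2. C26 tumour replicate 1 was also high, with 30.2 CPM of Tnnt1 and 41.1 CPM of Myh7, and KPCML1 replicate 1 had 12.9 CPM of Myh7, against 2.45 CPM in replicate 2. Control libraries also differed within pairs, with Tnnt1 at 9.69 and 1.35 CPM in LLC controls. Some controls were as high as KPCML1 replicate 1, with Myh7 at 11.7 and 12.9 CPM in C26 controls. Myl2 stood at 12.7 CPM in C26 control replicate 2 and 12.8 CPM in KPP control replicate 2, against 5.52 CPM in KPCML1 replicate 1.

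**Figure D3:**
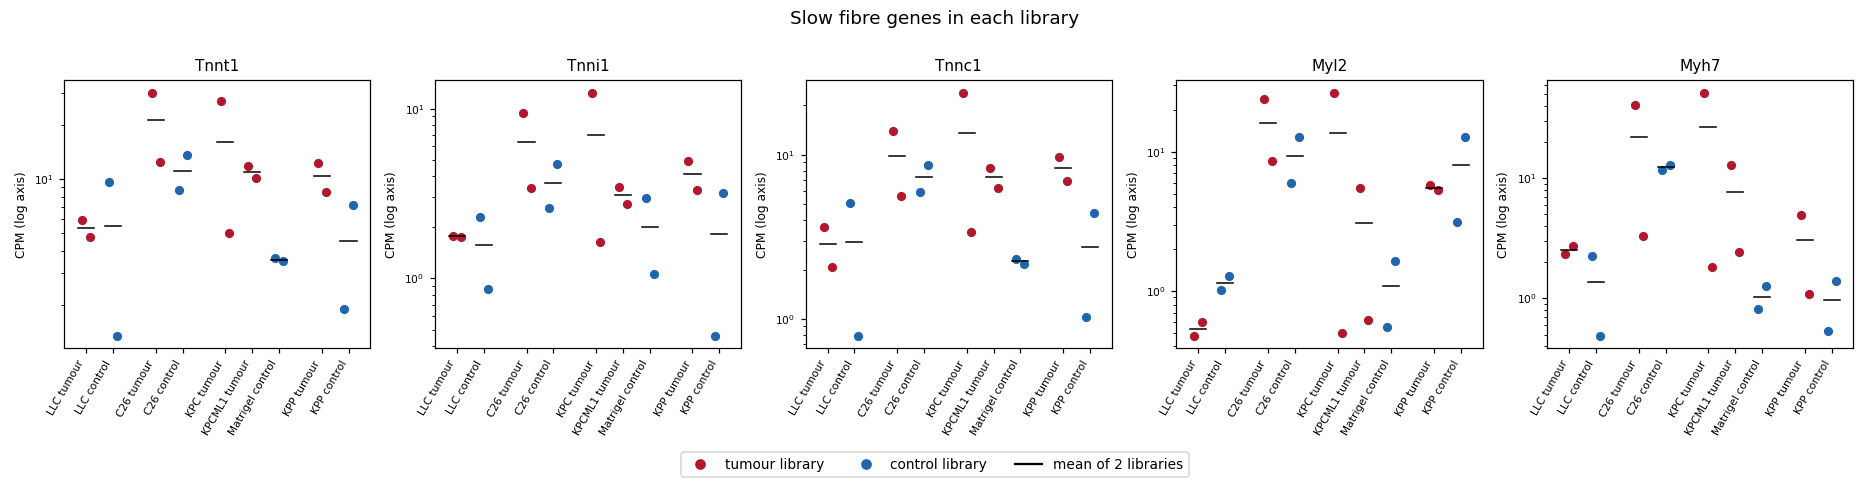
CPM (log axis) of 4 slow fibre members and of Myh7 in each of the 18 libraries, with red tumour points left of their blue control points and bars at the mean of 2 libraries. KPC tumour replicate 1 stands above KPC tumour replicate 2 in each panel, at 26.5 against 0.497 CPM for Myl2.

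Fast and slow paralogues were compared as log2 ratios of CPM + 0.5 within each library. The mean tumour minus control difference over the 4 experiments, of which the orthotopic one holds KPC, KPCML1 and the Matrigel controls, was tested by an exact two-sided permutation test that shuffled labels within experiments (3240 arrangements, smallest possible p 0.000309), and p-values were adjusted over the 10 pairs. Tpm1 over Tpm3 had a median of 7.45 in tumour libraries (6.70 to 8.38) and 9.10 in control libraries (8.76 to 9.85), so that no tumour library reached any control library. The mean difference was -1.61 (p = 0.000309, adjusted p = 0.00309), the smallest p the exact permutation test allows. It was -0.98 in LLC, -2.46 in C26, -1.70 in KPC, -1.80 in KPCML1 and -1.27 in KPP. Tpm3 was summed over all its transcripts, including forms used outside muscle, so this ratio is not purely fast against slow.

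All 3 fast-to-slow troponin ratios were lower in tumour muscles. They are not independent of each other, as the slow genes were high together in some libraries. The 2 KPC tumour muscles stood at 8.52 and 11.12 for troponin C, 9.90 and 11.98 for troponin T, and 9.82 and 12.03 for troponin I. Troponin C (Tnnc2 over Tnnc1) had a median of 9.87 in tumour libraries (8.40 to 11.44) and 11.76 in control libraries (10.02 to 13.28). The mean difference was -1.69 (p = 0.00154, adjusted p = 0.00772) for troponin C, -1.11 (p = 0.00586, adjusted p = 0.0147) for troponin T and -0.89 (p = 0.0191, adjusted p = 0.0344) for troponin I, by the exact permutation test. Each difference was negative in all 5 models, between -2.34 and -1.02 for troponin C and between -1.51 and -0.84 for troponin T. The tumour and control ranges overlapped for each, and the LLC control replicates lay far apart. With 1 library left out, adjusted p stayed at or under 0.0231 for troponin C. The troponin T call was lost without LLC tumour replicate 2. The troponin I call was lost without LLC tumour replicate 2, Matrigel control replicate 2 or either C26 control library. It was also lost without C26 tumour replicate 1, KPP control replicate 1 or either KPP tumour library.

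The mean difference of Mylpf over Myl2 was -1.26 (p = 0.0241, adjusted p = 0.0344), and that of Myoz1 over Myoz2 was -1.17 (p = 0.0207, adjusted p = 0.0344), by the same exact permutation test. The call of Mylpf over Myl2 was lost without LLC tumour replicate 2 (0.0529), Matrigel control replicate 1 (0.132), Matrigel control replicate 2 (0.0694), KPCML1 tumour replicate 1 (0.0556), C26 control replicate 1 (0.0741), C26 control replicate 2 (0.0514), C26 tumour replicate 1 (0.0547), KPP control replicate 1 (0.0829), KPP tumour replicate 1 (0.0582) or KPP tumour replicate 2 (0.0525). The call of Myoz1 over Myoz2 was lost without LLC tumour replicate 2 (0.0529), Matrigel control replicate 1 (0.132), C26 control replicate 1 (0.0758), C26 control replicate 2 (0.0653), KPP control replicate 1 (0.0556) or KPP tumour replicate 2 (0.0525). For Myoz1 over Myoz2 the difference was -2.02 in C26 and -2.10 in KPP, against 0.20 in LLC. Acta1 over Actc1, adult skeletal against cardiac actin, was higher in tumour muscles by 1.83 (p = 0.00494, adjusted p = 0.0147) in the exact permutation test, from 0.53 in KPCML1 to 3.30 in KPP, and the call was lost without LLC tumour replicate 2 (0.0529).

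The mean difference of Myl1 over Myl3 was 0.05 (p = 0.878, adjusted p = 0.878), that of Actn3 over Actn2 was -0.05 (p = 0.868, adjusted p = 0.878) and that of Mybpc2 over Mybpc1 was -0.33 (p = 0.285, adjusted p = 0.356), none past the threshold in the exact permutation test. For Myl1 and Myl3 the fitted log2 fold changes of both genes were negative in each model. For Mybpc2 to Mybpc1 the difference was -1.68 in KPP and 0.44 in LLC, with groups apart in opposite directions.

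**Figure D4:**
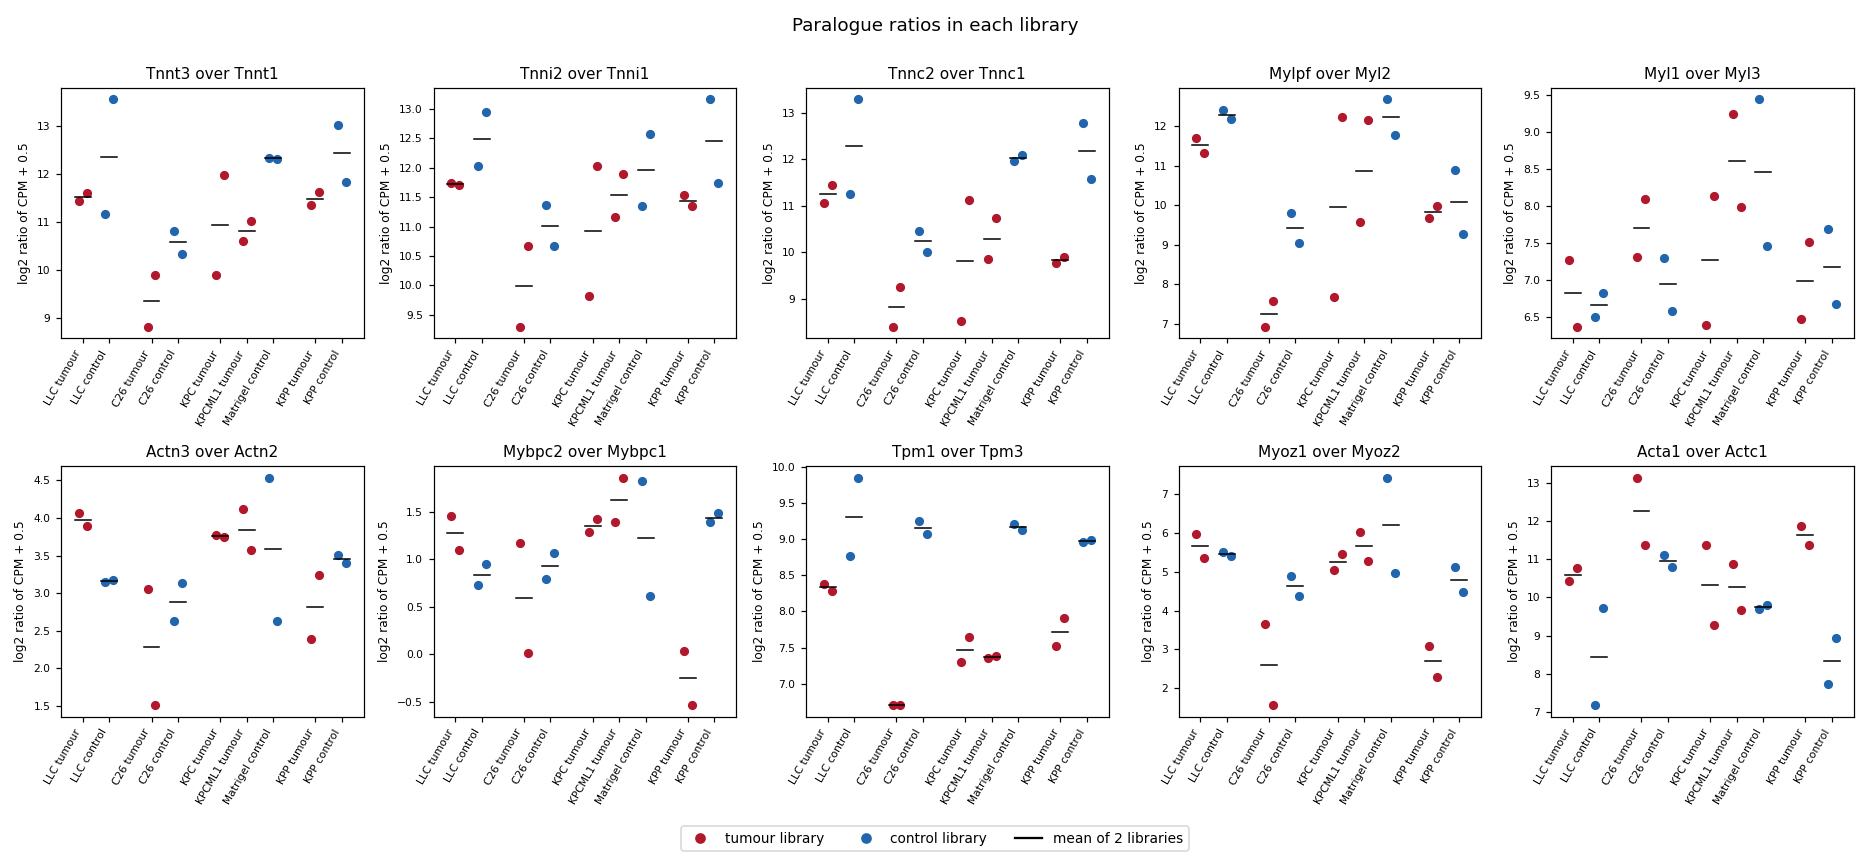
Log2 ratio of CPM + 0.5 between 10 pairs of paralogues in each of the 18 libraries, with red tumour points left of their blue control points and bars at the mean of 2 libraries. Tpm1 over Tpm3 lies at 6.70 to 8.38 in tumour libraries and 8.76 to 9.85 in control libraries.

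Transcript usage was examined for Tnnt3, Ldb3 and Tpm1, which have 27, 8 and 21 annotated transcripts with a value, of which 6, 3 and 1 reached 5% of the gene's TPM in some library. Tpm1-205 took 94.8% to 97% of Tpm1 TPM in tumour libraries and 96% to 97.6% in control libraries, so 1 transcript held nearly all Tpm1 TPM in each library. Among the 10 transcripts the edgeR diffSpliceDGE test called 0 in each comparison, with 0 at an unadjusted p under 0.05, against 0.0681% of 38174 transcripts called in LLC, 0.121% in C26, 0.136% in KPC, 0.0472% in KPCML1 and 0.28% in KPP. In simulated data diffSpliceDGE missed most of the changes put in, calling 69 of 189 transcripts changed 8-fold, so a count of 0 does not show equal usage. It also called 38 transcripts of unchanged genes there. The limma diffSplice test, an alternative added after that and after the data were seen, called 0 in LLC, C26, KPC and KPCML1 (3, 3, 3 and 2 of 10 at an unadjusted p under 0.05), where 0.021%, 0.231%, 0.684% and 0.0603% of all transcripts were called. In KPP it called 2 (4 at an unadjusted p under 0.05), where 1.21% of all were called. In the simulated data limma diffSplice called 168 of 189 transcripts changed 8-fold and 10 transcripts of unchanged genes. The simulation drew each transcript independently with 1 fixed spread and no error of read assignment. It therefore cannot say how often either test errs for transcripts that share most of their sequence, as those of Tnnt3 do.

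The 2 calls in KPP were Tnnt3-201 (limma log2 usage change -2.05, limma adjusted p = 9.69e-05) and Tnnt3-206 (-1.85, 0.00857). The diffSpliceDGE estimates in KPP were -1.02 for Tnnt3-201 and -1.21 for Tnnt3-206, and neither was called. Mean shares in KPP tumour against control muscles were 23.5% against 48.4% for Tnnt3-201 and 6.66% against 14.9% for Tnnt3-206. On the log2 scale these are smaller changes than the limma values. Tnnt3-201 took 34.9% and 12.2% of Tnnt3 TPM in KPP tumour muscles, against 50.4% and 46.4% in KPP control muscles. Tnnt3-206 took 7.51% and 5.80% in KPP tumour muscles, against 14% and 15.9% in controls. KPP tumour replicate 2 was the lowest of all libraries for Tnnt3-201.

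Salmon splits reads among transcripts that share most of their sequence, so shares were also summed over all transcripts with a given exon. These exon shares were chosen after the transcript shares had been seen in the same libraries, so their p-values are not independent evidence. For the upstream 15-base exon of Tnnt3 printed above, transcripts with it made up 75.8% and 81.1% in LLC, 84.4% and 82.4% in C26, 89.4% and 86.5% in KPC, 84.8% and 90.0% in KPCML1, and 86.4% and 89.3% in KPP tumour muscles. Control muscles had 71.2% and 74.1% for LLC, 70.3% and 71.2% for C26, 80.7% and 72.8% with Matrigel, and 79.4% and 79.1% for KPP. Each tumour library was above both its controls, although the overall ranges overlapped. The mean difference was 9.48 percentage points (p = 0.000309, adjusted p = 0.00278) over the 9 exons examined, by the same exact permutation test, at the smallest p it allows.

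For the upstream 41-base exon, transcripts with it made up 17.2% and 23.5% in LLC, 26.6% and 20.0% in C26, 23.8% and 16.9% in KPC, 11.4% and 20.7% in KPCML1, and 11.5% and 14.3% in KPP tumour muscles. Control muscles had 9.11% and 7.41% for LLC, 14.7% and 21.0% for C26, 9.30% and 7.48% with Matrigel, and 8.16% and 12.2% for KPP. Tumour libraries were above controls in LLC, KPC and KPCML1, and the C26 and KPP groups overlapped. The mean difference was 7.54 percentage points (p = 0.00278, adjusted p = 0.00833), and that of its downstream alternative -7.51 percentage points (p = 0.00247, adjusted p = 0.00833), in the exact permutation test. The mean difference of the 18-base exon was 7.70 percentage points (p = 0.135, adjusted p = 0.152), that of the 12-base exon 7.0 percentage points (p = 0.0698, adjusted p = 0.0897) and that of the downstream 15-base exon -0.143 percentage points (p = 0.984, adjusted p = 0.984), none past the threshold in the permutation test. The share of the downstream 15-base exon was 23.5 points higher in KPP, and its difference was -10.2 points in LLC. The 12-base exon also differed in sign among models, by 10.1 points in LLC, 12.9 in C26, 14.1 in KPC, 14.6 in KPCML1 and -9.33 in KPP. Without KPP tumour replicate 2 its mean difference was 8.91 points and passed the threshold (adjusted p = 0.00833, exact permutation test). Estimates of such short exons carry an assignment error that was not measured here.

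**Figure D5:**
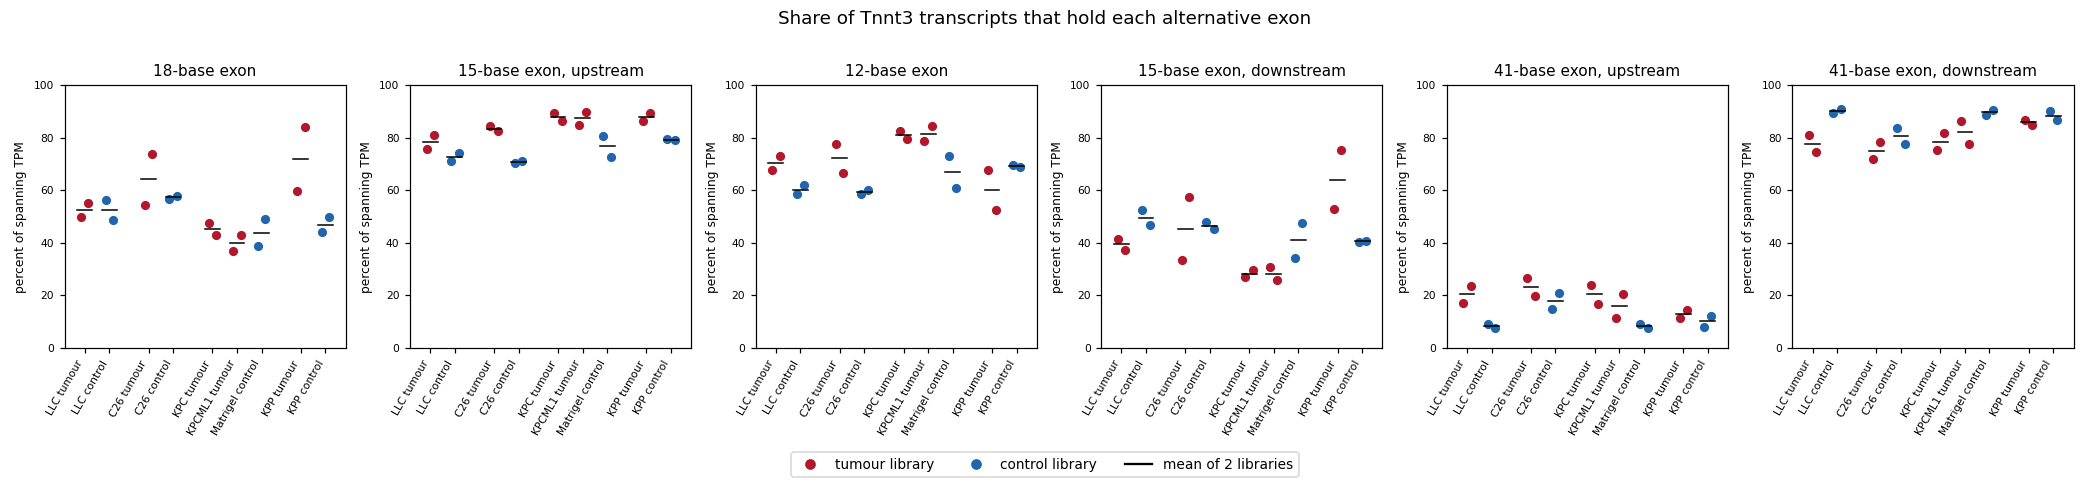
Share of the TPM of transcripts spanning each of 6 alternative Tnnt3 exons that comes from transcripts with the exon (percent, one panel per exon, in 5′ to 3′ order), in each of the 18 libraries; red tumour points are left of their blue control points and bars show the mean of 2 libraries. The upstream 15-base exon lies at 75.8% to 90.0% in tumour libraries and 70.3% to 80.7% in control libraries.

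Ldb3 was read mainly from a short transcript, Ldb3-207, whose coding sequence of 864 bases keeps the PDZ end and ends in a 621-base exon before the LIM domains of the long forms. It took 81.0% and 80.2% of Ldb3 TPM in LLC tumour muscles, against 85.3% and 85.4% in LLC controls. C26 tumour muscles had 79.0% and 79.5%, against 82.5% and 85.0% in C26 controls. Both pairs were apart, while the groups overlapped in KPC, KPCML1 and KPP. Over all experiments the share with the short form's last exon differed by -2.80 percentage points (p = 0.0142, adjusted p = 0.0227), by the exact permutation test, and the call was lost without Matrigel control replicate 2 (0.0514). As a share of estimated counts, which are not divided by length, the same exon stood at 55.4% to 70.7% in tumour libraries and 63.4% to 73.6% in control libraries, and the mean difference was -5.60 percentage points (adjusted p = 0.005, exact permutation test).

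The promoters of these genes, from 250 bases before to 50 after the RefSeq start (GRCm38.p6), were searched on both strands for motifs of muscle regulators. Of the 47 members 35 matched a promoter. The CArG box of serum response factor was in 5 of 35 (14.3%), against 1.57% of 27025 promoters of the same length, and the MEF2 motif in 6 (17.1%), against 3.26%; no member held both. The E-box CANNTG was in 32 (91.4%, against 72.1%), the MCAT core CATTCC in 12 (34.3%, against 14.6%) and the TATA sequence TATAAA in 6 (17.1%, against 14.2%), which overlapped no MEF2 match. The CArG members were Acta1, Actc1, Myom1, Myl3 and Ldb3, of which Myom1 rose and the others fell in at least 1 model. The MEF2 members were Ttn, Myom3, Mylk4, Myoz2, Xirp2 and Klhl41, of which Mylk4 fell, Myoz2 and Klhl41 rose, and Ttn, Myom3 and Xirp2 were called in none. The promoters of 3 of the genes that fell in both C26 and KPP are printed, 5′ to 3′ along the gene, with the CArG box (Actc1, Ldb3) or MEF2 motif (Mylk4) in capitals: Actc1 at chr2:114052826-114053125 (minus strand), Ldb3 at chr14:34588632-34588931 (minus strand) and Mylk4 at chr13:32783915-32784214 (minus strand). A match is a description of these letters only.
Actc1: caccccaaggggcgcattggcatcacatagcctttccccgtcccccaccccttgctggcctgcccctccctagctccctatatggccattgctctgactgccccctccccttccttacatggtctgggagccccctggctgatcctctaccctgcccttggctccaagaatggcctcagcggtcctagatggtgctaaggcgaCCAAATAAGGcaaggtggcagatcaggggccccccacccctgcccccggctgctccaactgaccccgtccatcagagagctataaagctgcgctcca
Ldb3: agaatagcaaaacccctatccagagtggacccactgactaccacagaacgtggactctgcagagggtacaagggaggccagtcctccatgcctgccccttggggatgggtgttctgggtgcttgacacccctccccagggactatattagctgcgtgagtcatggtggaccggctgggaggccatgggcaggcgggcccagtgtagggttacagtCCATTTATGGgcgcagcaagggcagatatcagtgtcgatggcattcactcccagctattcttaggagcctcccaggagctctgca
Mylk4: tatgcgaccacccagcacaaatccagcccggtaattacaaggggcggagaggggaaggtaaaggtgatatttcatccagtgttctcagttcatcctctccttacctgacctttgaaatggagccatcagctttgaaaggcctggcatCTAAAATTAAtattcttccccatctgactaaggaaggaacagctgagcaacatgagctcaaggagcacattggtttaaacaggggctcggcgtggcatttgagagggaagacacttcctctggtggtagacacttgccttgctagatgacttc

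Other genes of the Z-disc, M-band and costamere were read from a separate list of 36 symbols, of which 35 were found and tested. That list, too, was chosen with earlier results of these data known, so its shares are no test. In LLC 4 rose and 8 fell, in C26 5 rose and 9 fell, in KPC 5 rose and 4 fell, in KPCML1 1 rose and 2 fell, and in KPP 9 rose and 6 fell. The shares called were 34.3% in LLC, 40.0% in C26, 25.7% in KPC, 8.57% in KPCML1 and 42.9% in KPP, against 13.6%, 21.3%, 29.1%, 8.53% and 36.7% of all genes, so that KPC was below and KPCML1 close to the share of all genes. Casq1, the calcium store protein of the sarcoplasmic reticulum, fell in all 5, with log2 values between -1.37 in KPCML1 and -3.44 in C26. Pdlim3, a PDZ-LIM partner of alpha-actinin, rose in all 5, with log2 values between 0.69 in C26 and 1.31 in LLC. Nrap, a protein of myofibril assembly, rose in LLC (1.01), KPC (1.33) and KPP (1.42). Fhl1, a LIM-only protein, fell in LLC (-1.74) and KPCML1 (-1.95), and Smtnl1 rose in C26 (1.29) and KPP (1.18).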

How the data were processed

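Poly(A)-selected, strand-specific RNA libraries were read as paired ends on an Illumina NovaSeq, per the labels' protocols. Base calling with bcl2fastq 2.20, quality checks with FastQC, quantification with Salmon and testing with DESeq2, and the build mm10, are named by the submitters' processing notes, with no Salmon version or index named. The deposited values per transcript are estimated counts (fractional reads assigned by Salmon), TPM and an effective length, per the file headers. The authors' own comparison tables were not used.

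Transcripts were matched to GENCODE M21 by unversioned ID (139881 of 140825; the rest held 0.416% to 0.693% of fragments), summed per gene and rounded. Genes were tested with edgeR 4.0.16 (filterByExpr, TMM, quasi-likelihood) in 1 fit of 9 groups in R 4.3.3, transcripts with edgeR diffSpliceDGE and limma 3.58.1 diffSplice, ratios and exon shares with exact permutation tests over libraries. On simulated data with known changes the gene test missed most of the smaller ones and called most of the larger ones, and diffSpliceDGE missed most. Same-group libraries correlated at 0.980 to 0.990, and none held another's values.

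Named were members called in at least 3 comparisons, the largest rise and fall of each comparison, a panel of core genes, and the largest changes of each further list. Members, panel and lists were chosen with earlier results of these data known, and exon shares were added after transcript shares were seen. Alternatives were RLE size factors, DESeq2 1.42.0, no filter, length-scaled counts, experiments alone, a replicate block, the orthotopic experiment left out, TPM ratios, a pseudocount of 2 CPM, and leaving out each library. At 22546541 to 36673780 fragments, counting error is small for abundant members and larger for slow genes near 1 CPM.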

Additional observations from a re-analysis of the deposited data

Results flagged for a closer look

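The test of equal tumour minus control differences across the 5 models (edgeR's quasi-likelihood F test, Benjamini-Hochberg adjusted over 16089 genes) picked out 4 members. That is 8.51% of the members, close to the 8.32% of all genes. Mouse strain, the way the tumour was given and experiment also differ among the models and cannot be told apart from the tumour. Mybph had an adjusted p of 0.0245 and log2 values of -0.64 in LLC, 1.67 in C26, 0.41 in KPC, 1.06 in KPCML1 and -2.95 in KPP. Mylk4 had an adjusted p of 0.0368, with log2 values between -4.37 in KPP and 0.24 in LLC. Xirp1 had an adjusted p of 0.0408, with values between 0.19 in LLC and 2.83 in KPC. Lmod3 had an adjusted p of 0.0475, with values between -2.05 in LLC and -0.38 in KPP. With each library left out in turn, the number of members that the test called ran from 0 to 13, and DESeq2's likelihood ratio test called all 4. With length-scaled counts Lmod3 was not called (adjusted p = 0.0558). With a replicate block Mybph (0.0537), Xirp1 (0.0509) and Lmod3 (0.118) were not called, and with the KPP control numbers crossed Lmod3 was not (0.0952). Groups of 2 libraries are too small to test a single library as an outlier.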

How the results depend on the processing

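Direction and call of the named genes were the same under 1175 alternative values and no longer past the threshold under 160, and Myl2 in KPC ran over -1.06 (without KPC tumour replicate 1) to 4.55 (without Matrigel control replicate 2). Most of these values come from fits without 1 library, mostly one outside the comparison named. For counts called, ratios and exon shares, 654 alternative values were the same and 62 counts moved by over 1.5 times. Among ratios and exon shares, 47 lost the threshold, 1 gained it and 22 changed sign. Groups of 2 limit every result. In a leave-one-out fit the spread of the remaining single library is taken from the other groups. More genes also pass the filter on low counts there than in the main fit. A call lost without a library outside its comparison was not separated from that change. Counts of members called moved by over 1.5 times as follows, and the cause was not tested. With DESeq2 the members called were 2 higher in LLC, 5 lower in KPCML1 and 17 in the joint test (36.2% of members, against 21.6% of all genes). With no filter on low counts they were 3 higher in LLC, 11 in C26, 14 in KPC, 10 in KPCML1 and 18 in KPP, 9 lower in KPCML1 and 31 in the joint test. In that fit 38.3% of members were called in LLC, 57.4% in C26, 42.6% in KPC, 40.4% in KPCML1, 61.7% in KPP and 66.0% in the joint test, against 9.63%, 13.3%, 16.6%, 7.62%, 20.9% and 14% of 29433 genes, which take in genes near 0 counts. Length-scaled counts gave 1 higher in KPCML1, and experiments fitted alone gave 3 higher and 18 lower in LLC (44.7% of members, against 28.2% of all genes). Limma diffSplice gave 2 transcripts in KPP, against 0 with diffSpliceDGE.

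With experiments fitted alone, Acta1 in C26 and KPP, Myom1 in KPCML1 and KPP, Tpm1 and Ankrd1 in KPP, Tcap in C26 and Myl2 in KPC were not called. With RLE size factors Tpm1 in KPC and Myoz3 in LLC were not called. With length-scaled counts Tpm1 and Myl2 in KPC, Myom1 in KPCML1, Myoz2 in KPP and Myoz3 in LLC were not called, and with no filter Myom1 in KPCML1.

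Deviations of same-numbered tumour and control libraries correlated over genes at 0.01, -0.08, -0.05, 0.09 and -0.17 in LLC, C26, KPC, KPCML1 and KPP. Each value rests on 1 difference per group, so it cannot show whether the numbers pair the libraries. A replicate block gave 6 members lower in LLC and 1 higher in KPCML1. With the KPP control numbers crossed, 13 members rose and 11 fell in KPP. For ratios and exons the block takes differences within 6 pairs of LLC, C26 and KPP and leaves out the orthotopic libraries, with 0.03125 as the smallest possible p. The values below move by that omission alone. The ratio differences were -1.0 for Tnnt3/Tnnt1, -0.94 for Tnni2/Tnni1, -1.60 for Tnnc2/Tnnc1, -1.07 for Mylpf/Myl2, -1.57 for Tpm1/Tpm3, -1.31 for Myoz1/Myoz2 and 2.25 for Acta1/Actc1. The exon differences in points were 9.0 for the upstream 15-base, 6.78 for the upstream 41-base, -6.88 for the downstream 41-base and 4.03 for the downstream 15-base Tnnt3 exon, and -3.74, 2.39 and 3.59 for the Ldb3 exons. None of these passed the threshold within pairs (lowest adjusted p 0.0781 for ratios and 0.0938 for exons, exact sign-flip permutation test). On the same 12 libraries with no pairing, an alternative added after the data were seen, Tnnt3/Tnnt1, Mylpf/Myl2 and Myoz1/Myoz2 (adjusted p = 0.0661 each) and both 41-base exons (0.0556) were not called in the exact permutation test, and the other calls held. The downstream 15-base exon differed by 1.60 with shares of estimated counts. Mylpf/Myl2 was -1.19 from TPM (adjusted p = 0.0679, exact permutation test), and Myl1/Myl3 was -0.10 with a pseudocount of 2 CPM.

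With 1 library left out in turn, members called ran over 0 to 2 higher and 2 to 13 lower in LLC, 3 to 7 and 7 to 16 in C26, 4 to 8 and 1 to 5 in KPC, 0 to 3 and 0 to 5 in KPCML1, 4 to 13 and 9 to 15 in KPP, and 0 to 13 in the joint test. Calls over all genes moved as well in these fits, so such ranges are not particular to the members. Ratio differences ran over 1.51 to 2.15 for Acta1/Actc1, -0.29 to 0.19 for Actn3/Actn2, -0.48 to -0.18 for Mybpc2/Mybpc1, -0.19 to 0.30 for Myl1/Myl3, -1.46 to -1.03 for Mylpf/Myl2, -1.47 to -0.86 for Myoz1/Myoz2, -1.94 to -1.44 for Tnnc2/Tnnc1, -1.06 to -0.71 for Tnni2/Tnni1, -1.41 to -0.81 for Tnnt3/Tnnt1, -1.75 to -1.48 for Tpm1/Tpm3. Exon differences in points ran over 2.27 to 3.11 for the Ldb3 exon at 34536565, 1.72 to 2.16 for the Ldb3 exon at 34555343, -3.31 to -2.29 for the Ldb3 exon at 34561261, 4.68 to 10.7 for the 18-base Tnnt3 exon, 8.49 to 10.47 for the upstream 15-base Tnnt3 exon, 5.10 to 8.91 for the 12-base Tnnt3 exon, -3.18 to 2.89 for the downstream 15-base Tnnt3 exon, 6.71 to 8.37 for the upstream 41-base Tnnt3 exon, -8.31 to -6.70 for the downstream 41-base Tnnt3 exon. Slow genes near 1 CPM are those that depth limits most.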

Other observations

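Among 18 chaperones, ubiquitin ligases and proteases of the sarcomere, 5 rose and 4 fell in LLC, 6 and 3 in C26, 9 and 5 in KPC, 3 and 4 in KPCML1, and 7 and 7 in KPP. The shares called were 50.0%, 50.0%, 77.8%, 38.9% and 77.8% in LLC, C26, KPC, KPCML1 and KPP, against 13.6%, 21.3%, 29.1%, 8.53% and 36.7% of all genes. This list and those below were chosen with earlier results of these data known, so such shares describe them and are no test. The ligases Trim63 (MuRF1), which degrades thick filament proteins, and Fbxo32 (atrogin-1) rose in all 5 models, Trim63 between 2.86 in LLC and 4.41 in KPC, and Fbxo32 between 1.88 in KPP and 3.15 in C26. Klhl38 also rose in all 5, with values between 1.52 in KPC and 2.27 in LLC. Kbtbd13, a ligase adaptor of the thin filament, fell in all 5, with values between -1.58 in KPCML1 and -2.91 in KPP, as did Smyd1, a methyltransferase of myosin assembly, with values between -0.90 in KPC and -1.19 in KPP.

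Of 32 listed transcription factors and cofactors of sarcomere genes and fibre type, 30 were tested; 3 rose and 3 fell in LLC, 2 and 6 in C26, 6 and 6 in KPC, 0 and 1 in KPCML1, and 2 and 5 in KPP. In the same order of models the shares called were 20.0%, 26.7%, 40.0%, 3.33% and 23.3%, below those of all genes in KPCML1 and KPP. Mrtfa, an actin-sensing cofactor of serum response factor, fell in all 5, with values between -1.57 in LLC and -2.48 in KPC. Mef2c fell in C26 (-1.75) and KPC (-1.36), Mafa in LLC (-1.63), C26 (-1.76) and KPC (-1.02). Hdac4 rose in LLC (2.35) and KPC (1.10), Tead4 in C26 (2.17), Eya4 in LLC (0.96) and KPC (1.18), and Vgll2 in KPP (1.24). Among 16 splicing factors of sarcomere transcripts, 1 rose and 0 fell in LLC, 2 and 1 in C26, 7 and 2 in KPC, 1 and 1 in KPCML1, and 2 and 0 in KPP. Their shares called were 6.25%, 18.8%, 56.2%, 12.5% and 12.5%, below those of all genes in LLC, C26 and KPP. Rbfox2 fell in C26 (-1.02), KPC (-0.92) and KPCML1 (-0.80), Rbfox1 rose in LLC (1.16) and KPC (0.54), Ptbp2 rose in C26 (0.62), KPC (0.86) and KPP (0.81), Rbm20 rose in KPC (1.09), and Celf2 rose in KPC (0.54) and KPCML1 (0.74). These are log2 fold changes called by edgeR at an adjusted p under 0.05 over all genes.

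Markers of other cells also moved, and their part in the members' values was not tested. The 7 erythroid markers summed to 146 to 6834 CPM in tumour libraries and 294 to 890.1 CPM in control libraries, with 6 of 7 higher in LLC and 7 of 7 in KPC and KPCML1. The 6 neutrophil markers summed to 6.84 to 65.6 CPM in tumour libraries and 1.47 to 3.44 CPM in control libraries, and 2 rose in LLC, 4 in C26, 5 in KPC, 4 in KPCML1 and 3 in KPP. The 7 fibroblast and tendon markers summed to 114 to 437 CPM in tumour libraries and 309 to 907 CPM in control libraries, with 3 lower in LLC, 3 in C26, 4 in KPC, 2 in KPCML1 and 4 in KPP, and 1 higher in C26 and 1 in KPP. The 5 adipocyte markers summed to 156 to 408 CPM in tumour libraries and 161 to 344 CPM in control libraries, with 2 higher in KPC and 2 in KPCML1, and 3 lower in C26 and 4 in KPP. The 6 epithelial or tumour markers summed to 1.13 to 4.35 CPM in tumour libraries and 0.955 to 9.30 CPM in control libraries, and 2 of them fell in KPP.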
